A study of Mus musculus with 18 samples.

Results

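A group of 6 testis transcripts with an m5C site in polyadenylated RNA of the mouse testis are described here: Adam2, Atp8b3, Tcp10c, Nup50l, Spata18 and Asrgl1. They were chosen by gene name, as genes of the acrosome and sperm surface or with expression enriched in the testis, and each carried 1 listed site, so that they make up 6 of the 251 sites and 6 of the 235 genes of the mRNA table. The tissue was testis of adult Nsun7 knockout (KO) mice and adult wild-type (WT) mice, with 3 mRNA libraries of each genotype. The sample descriptions write the knockout as Nsun7-/-, and the label gives no further allele, strain or treatment. The label does not tie the libraries of a genotype to separate animals, so a p-value here reflects the scatter of libraries, which may be technical. Ultrafast bisulfite sequencing turns unmethylated cytosine into uracil, and the m5C level of a site is the percentage of its reads that still showed C. Unmethylated cytosine that escaped conversion counts as m5C in such a level, and how complete conversion was could not be read from these tables.

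RNA 5-methylcytosine is made by DNMT2 and by enzymes of the NOL1/NOP2/Sun family, of which NSUN2 and NSUN6 are known to act on mRNA. NSUN7 belongs to this family by sequence, and the title of the series calls it catalytically inactive on RNA and a regulator of sperm flagellum assembly. The comparison of genotypes asks whether m5C at a listed site depends on Nsun7. Spermatids, the haploid cells that become sperm, build the acrosome, a secretory vesicle over the nucleus that is released at fertilisation. Germ cells also place on the sperm surface the proteins with which sperm pass through the female tract and bind the egg.

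Only 2 of the 6 genes belong to the acrosome or the sperm surface by what is known of their products. Adam2 encodes fertilin beta, a membrane protein of the sperm surface needed for sperm to pass the uterotubal junction and to bind the zona pellucida. Atp8b3 encodes a P4-type ATPase, a lipid flippase of the acrosomal region. Spata18, known as Mieap, takes part in the quality control of mitochondria, and Asrgl1 encodes an asparaginase that also cleaves isoaspartyl peptides. Tcp10c is one of several close copies of a germ cell gene of the t-complex on chromosome 17, and Nup50l is named for its likeness to the nucleoporin gene Nup50. The label of acrosomal transcripts thus rests on Adam2 and Atp8b3, and the 12 spermatid marker genes examined, from Prm1 to Akap4, had 0 listed sites, so enrichment in spermatids could not be checked in these tables.

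Coordinates are those of the authors' files, on GRCm39 per the submitters' processing notes. The Adam2 site (ENSMUSG00000022039) lies at position 66288045 of chromosome 14 on the minus strand. The Atp8b3 site (ENSMUSG00000003341) is at 80356036 of chromosome 10, also minus. The Tcp10c site (ENSMUSG00000052469) is at 13580087 of chromosome 17 on the plus strand. The other plus-strand site is that of Spata18 (ENSMUSG00000029155), at 73827006 of chromosome 5. The Nup50l site (ENSMUSG00000072878) is at 96142514 of chromosome 6 and the Asrgl1 site (ENSMUSG00000024654) at 9090482 of chromosome 19, both minus. The sign in the files equalled the strand of the gene at all 199 sites whose gene has a strand in the RefSeq promoter table, including 4 of the 6 genes described here. Whether a site falls in coding sequence or an untranslated region, and which bases surround it, was not analysed here.

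The 6 mRNA libraries held 42086 to 55140 reads summed over listed sites, and 11.8% to 15.2% of these fell on the 6 sites. Both replicate 3 libraries stood apart from the others in coverage. Across the 251 sites, deviations of log2 coverage from the genotype mean correlated at 0.808 between KO replicate 3 and WT replicate 3, and at -0.585 and -0.706 between KO replicate 3 and the other WT libraries. Deviations within a genotype cancel out, so the negative values follow in part from the positive one. In m5C the same-numbered libraries did not deviate together in this way, at correlations of 0.0644, -0.0336 and 0.149. The results below are therefore also given without both replicate 3 libraries where that turns a direction or moves a value by over 1.5 times.

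All 6 sites had low m5C, with means over the 6 libraries of 3.94% to 6.85%. The median of the 6 means was 5.20%, beside 10.6% over all 251 sites, and 48.2% of all sites had a mean below 10%. Single libraries ranged from 3.30% in Atp8b3 to 9.71% in Nup50l. Coverage was high at 5 of the 6 sites, which were all among the 10 deepest of the table, and the median of the 6 mean coverages was 748 reads beside 127 reads over all sites. The other 5 of the 10 deepest sites ranged in mean level from 4.54% in Ubb-ps to 32.0% in Ybx3; deep sites were thus not all low in m5C. Across all 251 sites, log2 mean coverage and log2 mean level had a Pearson correlation of -0.549. This correlation is across sites of the same libraries, which are not independent replicates. Every listed site had at least 4 reads showing C in each WT library and at least 1 in each KO library. The part of the choice of listed sites in this correlation was not tested.

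**Figure D1:**
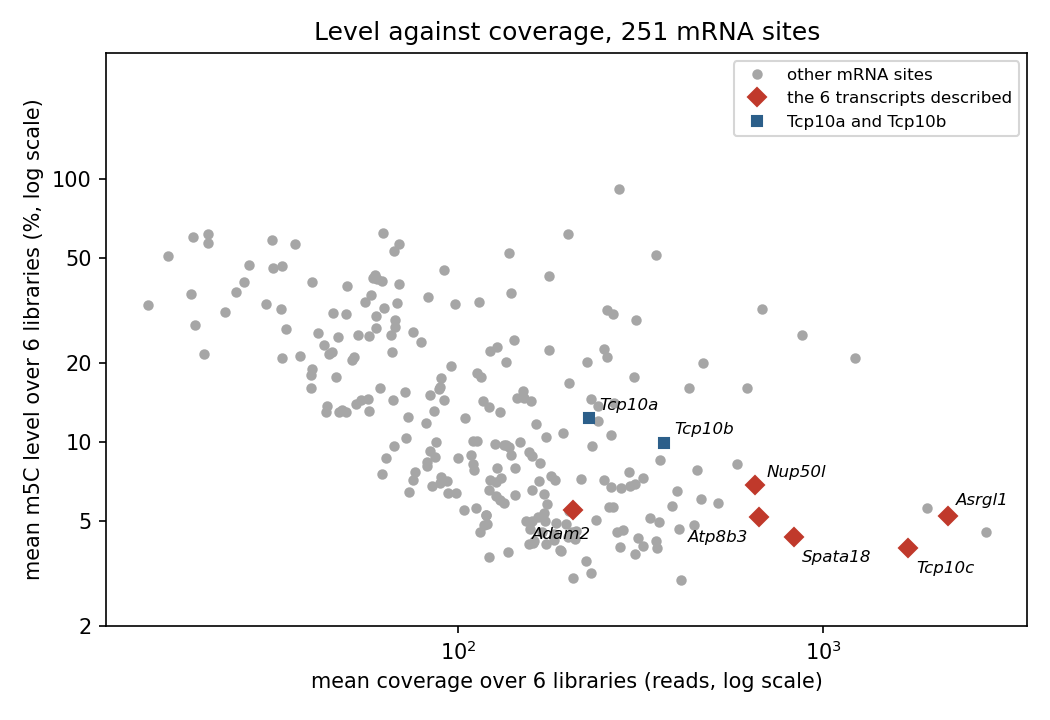
Mean m5C level (%, log axis) against mean coverage (reads, log axis) over the 6 mRNA libraries for each of the 251 mRNA sites. Diamonds mark the 6 transcripts described, which lie between 3.94% and 6.85%; squares mark Tcp10a and Tcp10b, at 12.3% and 9.91%; grey points are the other sites.

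Of the genes of the acrosome and sperm surface, Adam2 was the shallowest of the 6 sites. Its level was 4.67%, 9.48% and 5.37% in KO replicates 1, 2 and 3 and 4.15%, 3.57% and 5.73% in WT replicates 1, 2 and 3. These values came from 12, 22 and 11 reads showing C of 257, 232 and 205 in the KO and from 8, 7 and 9 of 193, 196 and 157 in WT. The genotypes overlapped, and only KO replicate 2 lay above 6%. Its exact binomial (Clopper-Pearson) 95% interval of 6.04% to 14.0% excludes the other 5 observed levels, although the intervals of those libraries overlap it. The mean was 6.51% ± 2.60 in the KO and 4.48% ± 1.12 in WT (SD, n = 3), 2.02 percentage points apart with a 95% limma interval of -2.11 to 6.15. Without KO replicate 2 the difference was 0.535 points, and without both replicate 3 libraries it was 3.22 points. Such single-library intervals take each read as a separate molecule and leave out other scatter between libraries. Reads may repeat a molecule, which cannot be told here, and the intervals would then be too narrow even for counting error.

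Atp8b3 had the most negative difference of the 6 sites. Its level was 3.30%, 4.70% and 5.88% in the KO libraries and 5.23%, 6.21% and 5.70% in the WT libraries, at coverage of 451 to 807 reads. KO replicates 1 and 2 lay below every WT library, and KO replicate 3 lay within the WT range. The mean was 4.63% ± 1.29 in the KO and 5.71% ± 0.491 in WT (SD, n = 3), and the difference of -1.09 points had a 95% limma interval of -3.99 to 1.82. Without KO replicate 1 the difference shrank to -0.421 points, and without both replicate 3 libraries it was -1.72 points.

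Among the testis-enriched genes, Nup50l had the highest mean m5C of the 6. Its level was 9.71%, 8.06% and 4.82% in the KO libraries, from 71, 62 and 23 reads showing C, and 6.53%, 5.56% and 6.43% in the WT libraries, from 44, 35 and 39. KO replicates 1 and 2 lay above every WT library and KO replicate 3 below every one, so the genotypes overlapped. The 95% intervals of KO replicates 1 and 3, 7.66% to 12.1% and 3.08% to 7.15%, did not overlap. The SD of 2.49 points in the KO exceeded the 1.07 points that counting reads alone would give, while the WT SD of 0.529 was below its counting value of 0.955. The mean was 7.53% in the KO and 6.17% in WT, a difference of 1.36 points with a 95% limma interval of -2.50 to 5.22. The difference was 0.270 points without KO replicate 1, 2.72 points without KO replicate 3 and 2.84 points without both replicate 3 libraries.

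Spata18 stood at 4.31%, 4.35% and 4.15% in the KO libraries and at 3.86%, 3.92% and 5.39% in the WT libraries, at coverage of 650 to 988 reads. The KO libraries lay within less scatter than read counting predicts, with an SD of 0.104 against 0.704 points. WT replicate 3 lay above all others. The difference in means was -0.119 points (95% limma interval -2.73 to 2.49), and it turned to 0.379 points without WT replicate 3 and to 0.437 points without both replicate 3 libraries.

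Asrgl1 was the second deepest site of the table, at 1801 to 2569 reads. Its level was 5.32%, 5.64% and 4.56% in the KO libraries and 4.83%, 5.08% and 6.00% in the WT libraries. The replicate 3 libraries were the lowest of the KO and the highest of WT. The mean was 5.17% ± 0.558 in the KO and 5.30% ± 0.616 in WT (SD, n = 3), a difference of -0.129 points. The 9 differences between a KO and a WT library ran from -1.44 to 0.817 points. The difference turned to 0.180 points without KO replicate 3, to 0.220 points without WT replicate 3 and to 0.528 points without both.

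Tcp10c had the lowest mean level of the 6. It stood at 3.84%, 3.42% and 3.87% in the KO libraries and at 5.40%, 3.65% and 3.46% in the WT libraries, at coverage of 1122 to 2664 reads. WT replicate 1 lay above the other 5, which were all between 3.42% and 3.87%. The mean was 3.71% ± 0.250 in the KO and 4.17% ± 1.07 in WT (SD, n = 3), a difference of -0.463 points. Without WT replicate 1 it turned to 0.151 points, and without both replicate 3 libraries it was -0.897 points.

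**Figure D2:**
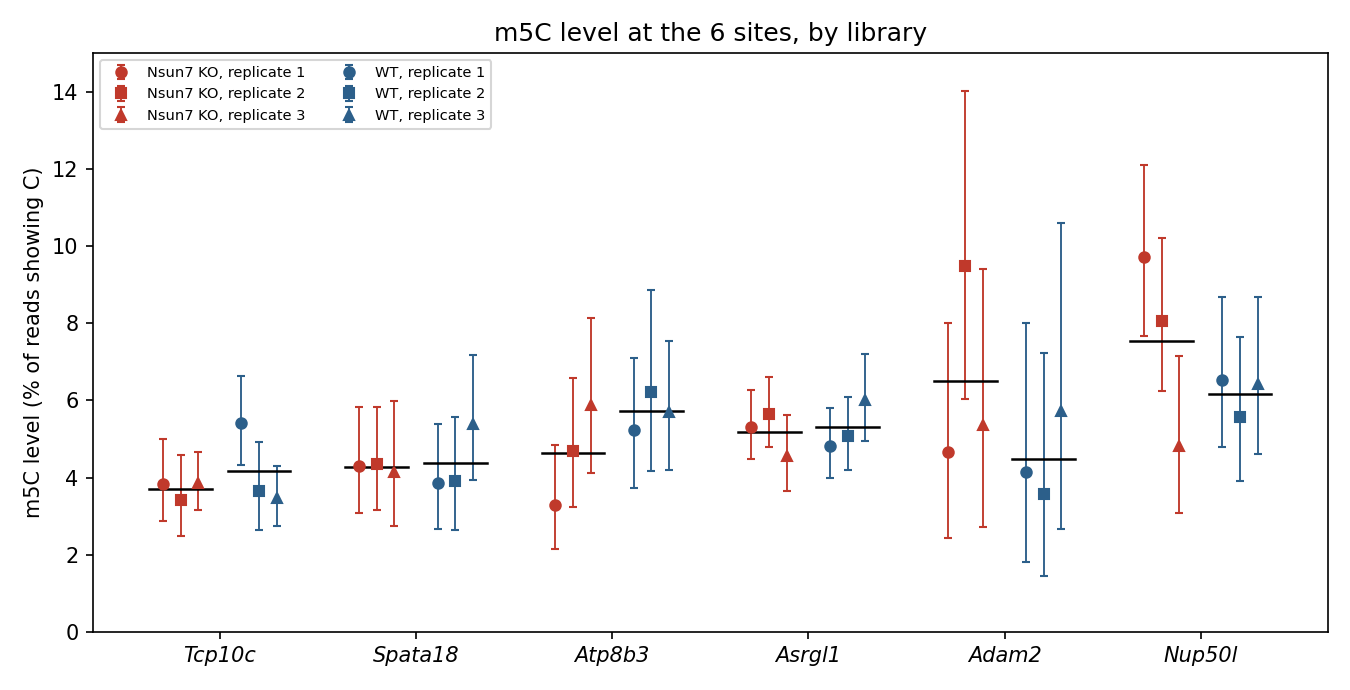
m5C level (% of reads showing C) at the 6 sites in each mRNA library, Nsun7 KO libraries left of WT libraries, with exact binomial 95% intervals as bars and the genotype mean as a black line. The genotypes overlap at each of the 6 sites, and the highest values are Nup50l in KO replicate 1 (9.71%) and Adam2 in KO replicate 2 (9.48%).

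No difference between genotypes at the 6 sites was larger than the spread of the libraries by these tests. Fitted to all 251 sites with Benjamini-Hochberg adjustment, the quasi-binomial model called 0 of the 6, beside 0% of all sites, and the adjusted p of the 6 ran from 0.896 to 0.985. At an unadjusted p under 0.05 it found 0 of the 6, where the share over all sites was 7.97%. The version with dispersions moderated over sites also called 0 and found 1 of the 6 at an unadjusted p under 0.05, Nup50l at p = 0.0427 (adjusted p = 0.742 in the moderated quasi-binomial model). The share over all sites in that version was 5.58%. The libraries of the genotypes lay apart at 0 of the 6 sites, where the share over all sites was 11.6%. Exact two-sided permutation tests over libraries gave p of 0.3 at Adam2 and Atp8b3 and of 0.5 to 1.0 at the other 4, where 3 libraries against 3 cannot go below 0.1.

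The KO mean was lower at 4 of the 6 sites and higher at 2, beside 150 lower and 101 higher of all 251. The median difference over the 6 was -0.124 points, and -0.395 points over all sites. Over all sites, the lowest count of reads showing C was 4 in a WT library and 1 in a KO library. The part of the choice of listed sites in these splits and medians was not tested. Averaged over the 6 sites, the level was 5.19%, 5.94% and 4.77% in the KO libraries and 5.00%, 4.67% and 5.45% in the WT libraries, so that the WT values lay within the range of the KO values except the lowest, WT replicate 2. At all 6 sites the 95% limma interval lay above a fall by the whole WT level. At 2 of them, Adam2 and Nup50l, it also lay above a fall by 50% of the WT level, both with a higher mean in the KO. Unconverted cytosine counts in these levels to an unknown extent, so the intervals cannot decide whether m5C itself was lost. limma draws the variance of each site towards one shared by all sites, and at Asrgl1 its interval of -2.72 to 2.47 points was wider than the range of the 9 differences between libraries.

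**Figure D3:**
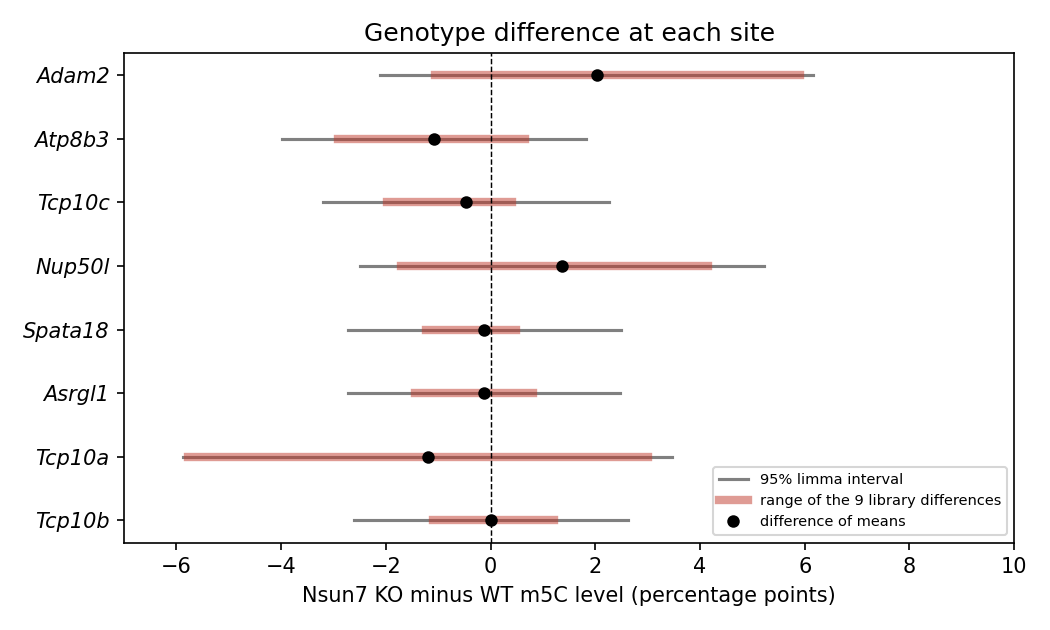
Nsun7 KO minus WT m5C level (percentage points) at the 6 sites and at Tcp10a and Tcp10b. Points are differences of means, thick bars the range of the 9 differences between a KO and a WT library and thin bars 95% limma intervals; each thin bar includes 0.

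Ordered by mean level over all 6 libraries, the sites were Tcp10c (3.94% ± 0.739), Spata18 (4.33% ± 0.554), Atp8b3 (5.17% ± 1.06), Asrgl1 (5.24% ± 0.530), Adam2 (5.49% ± 2.11) and Nup50l (6.85% ± 1.77; SD, n = 6). Each neighbouring pair in this order overlapped in library levels. Nup50l was higher than Tcp10c in 6 of 6 libraries, by 2.91 ± 1.99 points (SD of the differences), and than Spata18 in 6 of 6, by 2.52 ± 1.80 points. It also exceeded Asrgl1 in 6 of 6 libraries, by 1.62 points. Asrgl1 exceeded Spata18 in 6 of 6, by only 0.906 ± 0.337 points, and the lead was alike in the KO (0.901 points) and in WT (0.911 points). These 4 of the 15 pairs reached p = 0.03125 in the exact two-sided sign-flip test over libraries, the smallest 6 libraries can give, and each had p = 0.117 after Benjamini-Hochberg adjustment over the 15 pairs. With this smallest value, a pair can pass after adjustment only if most of the 15 pairs reach it, and 4 did. The adjusted result therefore cannot decide whether the transcripts have an order. The direction of these 4 differences was the same in 6 of 6 libraries.

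The nearest sites of other genes were sought by the root mean square difference in level over the 6 libraries. Insl3, a Leydig cell hormone gene read at 1122 to 2795 reads, was nearest to Asrgl1 at 0.446 points. Ccdc60 was nearest to Tcp10c, at 0.330 points, and Mif4gd to Atp8b3, at 0.601 points. Tesmin, a germ cell gene, was nearest to Spata18 at 0.665 points. Tektl1 was nearest to Adam2 at 0.961 points, with 6.45% in the KO and 3.94% in WT, and Psmd7, a proteasome subunit gene, to Nup50l at 1.17 points.

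The gene lists around these transcripts held few other listed sites. Of 50 genes of the acrosome and sperm surface, 18 testis ADAM genes, 17 flippase genes and 7 asparagine and aspartyl peptide enzymes, 0 had a site. A gene outside these lists, Dkkl1, whose product is an acrosomal protein of spermatids, had a site with a mean level of 20.1% over the 6 libraries at a mean coverage of 135 reads, and it is named after its value had been seen. Spata18 was the 1 gene with a site among those whose symbol starts with Spata. Of 28 genes of the nuclear pore and nuclear import 1 had a site, Nup188, a scaffold nucleoporin, with 14.3% ± 1.84 in the KO and 14.3% ± 1.68 in WT (SD, n = 3). Outside the list, the nucleoporin gene Pom121 had a mean level of 7.69% over the 6 libraries and the import receptor gene Ipo5 one of 2.99%, both also named after their values had been seen. Of 18 t-complex genes 4 had a site. Tcte2 stood at 10.5% ± 1.82 in the KO and 7.13% ± 2.69 in WT (SD, n = 3). Dynlt1b, a dynein light chain gene, stood at 8.26% ± 1.37 in the KO and 7.33% ± 0.376 in WT (SD, n = 3). None of these passed the quasi-binomial model, with adjusted p of 0.643 or more. Of the markers of other testis cells, 3 had a site in the mRNA table. Piwil1 of spermatocytes stood at 7.41% ± 2.78 in the KO and 6.88% ± 1.38 in WT, and the Leydig cell gene Insl3 at 5.51% ± 0.653 in the KO and 5.65% ± 0.364 in WT (SD, n = 3). The Sertoli cell gene Amhr2 stood at 5.60% ± 2.25 in the KO and 4.43% ± 1.07 in WT (SD, n = 3), and the quasi-binomial model gave all 3 marker sites the same adjusted p, 0.972. The scaled coverage of Amhr2 lay apart between genotypes, higher in the KO, with a log2 fold of KO over WT of 0.28 (edgeR adjusted p = 0.988). Scaled coverage lay apart at 7.97% of all sites. The genotypes overlapped at Insl3, with a log2 fold of 0.31, and at Piwil1, with -0.34 (-0.10 without both replicate 3 libraries). The spermatogonia, peritubular and macrophage markers had 0 sites in the mRNA table. No site of the small RNA table carried the name of one of the 6 transcripts (0 of 192).

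The other 2 t-complex genes were Tcp10a and Tcp10b, close copies of Tcp10c, with 3.12 times its mean level at Tcp10a and 2.52 times at Tcp10b. The Tcp10a site, at position 7597245 of chromosome 17, stood at 8.50%, 13.8% and 12.8% in the KO libraries and at 10.8%, 13.6% and 14.3% in the WT libraries. The Tcp10b site, at 13285180 of chromosome 17, stood at 9.97%, 10.7% and 9.09% in the KO libraries and at 10.2%, 10.1% and 9.47% in the WT libraries. Tcp10c lay below both in each of the 6 libraries. The mean difference between Tcp10c and Tcp10a was -8.36 points (SD of the differences 2.67), and that between Tcp10c and Tcp10b was -5.97 points (SD 0.881). Both gave p = 0.03125 in the exact two-sided sign-flip test, the smallest possible with 6 libraries, and p = 0.0469 after adjustment over the 3 pairs of copies. In the same test this p became 0.117 over the 15 pairs of the 6 sites, so the lower value comes from the smaller set of pairs. Tcp10b was below Tcp10a in 5 of 6 libraries, by 2.39 points (adjusted p = 0.0938 in the same exact test). With 5 libraries this test cannot go below 0.0625, so a call with 1 library left out is not possible. The difference from Tcp10b was -6.21 points in the KO and -5.74 points in WT.

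This comparison of copies was chosen after their sites had been seen, so its p-values describe the levels and do not test a question set beforehand. Whether the 3 sites are the same position of the copies was not analysed here, and the sources used here do not give how reads that match several copies were treated, so the coverage and level of each copy are uncertain. Coverage differed as well: 1122 to 2664 reads at Tcp10c, 156 to 294 at Tcp10a and 308 to 393 at Tcp10b. The part of depth or of shared reads in the difference of levels was not tested.

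Coverage at a site stands for the reads of a transcript at that position, and in bulk testis fewer cells of a type and less RNA per cell cannot be told apart. Adam2 had 257, 232 and 205 reads in the KO libraries and 193, 196 and 157 in the WT libraries, so its genotypes lay apart in raw reads, as did 3.19% of all sites with the KO higher. After TMM scaling they overlapped, with a log2 fold of KO over WT of 0.24 (SE 0.13). Across all sites, scaled coverage lay apart between genotypes at 7.97%, and at 0 of the 6 sites. Nup50l had 731, 769 and 477 reads in the KO libraries and 674, 629 and 607 in the WT libraries, a log2 fold of -0.091. The log2 folds of the other 4 lay between -0.10 at Atp8b3 and 0.062 at Tcp10c. Without both replicate 3 libraries the log2 fold of Adam2 was 0.11 and that of Nup50l was -0.021, while those of Atp8b3 and Spata18 turned to 0.074 and 0.044 and that of Asrgl1 to -0.041.

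edgeR's quasi-likelihood test with Benjamini-Hochberg adjustment called 0 of the 6 sites for coverage, beside 0% of all sites, with an adjusted p of 0.988 at each of the 6. With the replicate number as a block it also called 0 of all sites, while the sites at an unadjusted p under 0.05 went up to 28 (11.2%), against 5 (1.99%) without the block. None of the 6 was among either. With the block, the adjusted p of the 6 in edgeR's test ran from 0.447 at Adam2 to 0.970 at Asrgl1. DESeq2 called 0 of 250 sites, with 0 at an unadjusted p under 0.05.

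Coverage of Tcp10c differed most between replicate numbers among the 6 sites, and in the same direction in both genotypes. It had 1354, 1257 and 2664 reads in the KO libraries and 1574, 1122 and 2282 in the WT libraries. Replicate 3 thus held 2.04 times the mean of the other KO libraries and 1.69 times that of the other WT libraries, while the median over all sites was 0.710 in the KO and 0.873 in WT. At 13 of the 251 sites, 5.18%, both ratios were above 1.5, and Tcp10c was the 1 of the 6 among them. Its copies did not share this, with ratios of 0.569 in the KO and 1.07 in WT at Tcp10a and of 0.806 in the KO and 0.932 in WT at Tcp10b. The m5C level of Tcp10c in the replicate 3 libraries, 3.87% in the KO and 3.46% in WT, was the highest of the KO libraries and the lowest of the WT libraries. The log2 fold of Tcp10c coverage was 0.062 with all libraries, -0.65 without KO replicate 3, 0.45 without WT replicate 3 and -0.26 without both.

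**Figure D4:**
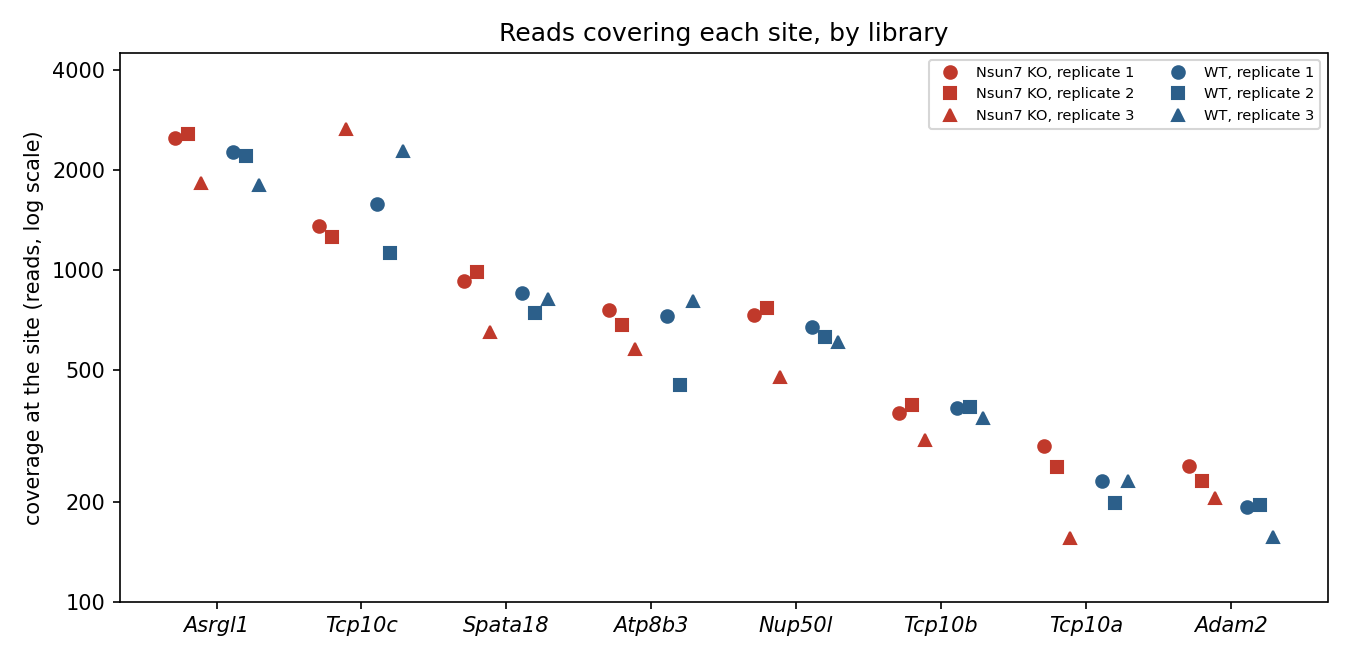
Coverage (reads, log axis) at the 6 sites and at Tcp10a and Tcp10b in each mRNA library, Nsun7 KO libraries left of WT libraries, with the replicate number as the marker shape. Replicate 3 (triangles) is the highest library at Tcp10c in both genotypes (2664 reads in the KO and 2282 in WT) and the lowest at Asrgl1 (1822 reads in the KO and 1801 in WT).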

How the data were processed

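Per the labels' protocols, polyadenylated RNA was isolated from TRIzol-extracted testis RNA by oligo-dT capture, converted with an ultrafast bisulfite reagent and built into libraries with a stranded mRNA kit. The build was GRCm39, and SAMtools, Bowtie2, HISAT2, Trimmomatic and cutadapt are named, per the submitters' processing notes. Neither their roles and versions nor the choice of listed sites was stated there. Per the file headers, the deposited coverage and C counts are read counts without normalization, and the deposited m5C level is a fraction, rounded by the authors to 2 decimals. It equalled C count over coverage within 0.005 at all 6 sites, and levels were recomputed here as percentages. 0 columns of sample values were left unmapped.

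m5C was tested by a quasi-binomial model per site with the dispersion of that site, using libraries with coverage of at least 10, over all 251 sites at an adjusted p of 0.05. Intervals came from limma 3.58.1 on levels. Coverage was tested with edgeR 4.0.16 (TMM) and DESeq2 1.42.0, in R 4.3.3. Library size was the sum over listed sites. Differences between genes were tested within libraries by exact sign-flip tests. The code was tested on simulated data. The genes, lists and tests were chosen with earlier results of these data known. Text names every site of the 6 genes, the nearest site of another gene in level, and sites of genes on the gene and marker lists. Dkkl1, Pom121 and Ipo5 were named after their values had been seen. Ubb-ps and Ybx3 were named for their values, as the lowest and highest in level of the other sites among the 10 deepest. Replicate numbers were taken as pairing coverage (correlations of 0.513, 0.693 and 0.808 between same-numbered libraries) but not m5C, by a limit of 0.1 for every pair. The main coverage test still used genotype only, and the replicate block was another setting. In coverage, KO replicate 1 with WT replicate 2 and KO replicate 2 with WT replicate 1 also correlated, at 0.506 and 0.483. The limit therefore does not show that each number is a pair. Other settings were a coverage minimum of 20 or none, moderated dispersions, limma, Fisher's test on pooled reads, a replicate block, other scalings and leaving out libraries.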

Additional observations from a re-analysis of the deposited data

How the results depend on the processing

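The count of 0 mRNA sites called for m5C held in 13 of 14 alternatives, and leaving out 1 library gave 0 to 1; the 1 call, without Nsun7 KO replicate 3, was not one of the 6 sites. The counts of 0 sites called for coverage held in all 12 alternatives. For the 15 gene pairs, 8 of the 9 alternatives had too few sign patterns for the exact test to pass its threshold. The replicate block was among them, and their 0 says nothing about stability. The log odds scale also gave 0, under the limit that most pairs must reach the smallest value of the test. A replicate block gave 0 calls for m5C and for coverage, with 22 m5C sites at an unadjusted p under 0.05 in the quasi-binomial model and 28 in edgeR's test of coverage, and it changed no call in these 2 tests. Of the 90 recomputed m5C differences at the 6 sites, 84 kept their direction, and of the 72 coverage folds, 58 did. None passed its threshold. The 84 overstate stability, as many of the 90 could not turn. The other coverage minima, moderated dispersions, limma on recomputed levels and the replicate block left each m5C difference as it was. Pooled reads entered both alone and under Fisher's test, and a difference of 0 at Asrgl1 from the rounded deposited levels counted as kept. All 6 turns in m5C came from leaving out libraries. Without both replicate 3 libraries, left out after the data had been seen, the m5C difference turned to 0.437 points at Spata18 and to 0.528 points at Asrgl1. The log2 coverage fold then turned to 0.074 at Atp8b3, -0.26 at Tcp10c, 0.044 at Spata18 and -0.041 at Asrgl1. The replicate block turned that of Tcp10c to -0.053, total coverage without a scaling factor that of Spata18 to 0.017, and a mean coverage of at least 50 reads that of Asrgl1 to -0.016.

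With 1 library left out, m5C differences ran from 0.535 to 2.94 points at Adam2, from -1.71 to -0.421 at Atp8b3 and from -0.818 to 0.151 at Tcp10c. They ran from 0.270 to 2.72 at Nup50l, from -0.382 to 0.379 at Spata18 and from -0.365 to 0.220 at Asrgl1. Log2 coverage folds ran from -0.65 to 0.45 at Tcp10c, from -0.32 to 0.15 at Atp8b3, from -0.10 to 0.029 at Spata18 and from -0.029 to 0.059 at Asrgl1. They ran from 0.14 to 0.31 at Adam2 and from -0.14 to -0.048 at Nup50l. The cause of these turns was not tested. Depth limits Adam2 most, with 7 to 22 reads showing C per library.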
